A study of Saccharomyces cerevisiae with 4 samples.

Results

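The genes described here encode 10 enzymes or enzyme subunits of the tricarboxylic acid (TCA) cycle of *Saccharomyces cerevisiae*, chosen by their ORF names: *CIT1* (YNR001C), *CIT2* (YCR005C), *ACO1* (YLR304C), *IDH1* (YNL037C), *IDH2* (YOR136W), *KGD1* (YIL125W), *KGD2* (YDR148C), *LSC2* (YGR244C), *FUM1* (YPL262W) and *MDH1* (YKL085W). All 10 had a row in the table, out of 6172 genes in all. The TCA cycle oxidises acetyl-CoA to carbon dioxide in the mitochondrion and hands electrons to the respiratory chain. Its intermediates 2-oxoglutarate and oxaloacetate also feed amino acid synthesis. In yeast grown on glucose many of its genes are held low by glucose repression; the HAP complex activates them in respiring cells, and the retrograde regulators Rtg1 and Rtg3 maintain the early steps when respiration is impaired.

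The 4 two-colour arrays each set total RNA of zymolyase-treated *mid2* mutant cells (BY4741 background) against that of untreated ones. Mid2 senses wall stress at the plasma membrane for the cell wall integrity pathway, and zymolyase is an enzyme preparation that digests wall glucan. Cells grown in YEPD at 24 °C were divided, and 1 part received 0.8 units per ml of zymolyase for 3 h while the other grew on without it; both carry the *mid2* mutation, and cells with intact *MID2* were not analysed here. The labels give 2 cultures, each hybridised in both dye orientations, without saying which arrays share a culture; arrays 1 and 3 carried the treated RNA in Cy3, arrays 2 and 4 in Cy5. The comparison asks how transcript levels in *mid2* cells respond to wall damage. In RNA from a whole culture, a change in the number of cells that express a gene and a change in RNA per cell cannot be told apart.

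The values were taken as log2 ratios, although the sources used here give neither the log base nor the numerator. Across genes, which are not independent replicates, array pairs of opposite orientation had Pearson correlations of 0.13 to 0.39, on which basis they were taken as already turned the same way; the Spearman correlations, −0.08 to 0.14, give this less ground. Pairs of the same orientation correlated more highly, at 0.48 (Spearman 0.41) for arrays 1 and 3 and 0.42 (Spearman 0.39) for arrays 2 and 4. The sign was set from 10 genes that zymolyase is known to induce. Their medians were 1.65 to 2.35 on the 4 arrays; positive values are therefore likely higher in treated cells, and every direction below rests on this. Of these 10 genes, 9 were above 0 on array 2 and 10 on each other array. Between 20.0% and 42.2% of rows were blank on an array, most on array 2. *MID2* had no value, so the genotype was not checked by its own gene. In a comment label, the untreated cells of array 4 are called a *hog1* mutant; *HOG1* read 0.26 on that array and 0.20, 0.55 and −0.15 on arrays 1 to 3.

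Of the 10 TCA cycle enzymes, 8 had values on all 4 arrays and entered the test, *IDH1* had 3 and *CIT1* had 1; 4 of their 40 possible values were blank. After zymolyase the transcripts of aconitase, the catalytic isocitrate dehydrogenase subunit and the first subunit of 2-oxoglutarate dehydrogenase had the highest mean ratios, at 1.75-fold for *ACO1*, 1.60-fold for *IDH2* and 1.53-fold for *KGD1*. None of the 8 passed the threshold, an adjusted p under 0.05 with limma under both possible pairings of arrays into cultures. Among all 3299 genes tested, 2.76% were called higher and 1.39% lower. At an unadjusted p under 0.05 the same limma test marked 3 of the 8 as higher (*ACO1*, *IDH2* and *KGD1*) and 0 as lower, against 4.94% and 5.88% of all genes. The members and the test were taken up with earlier results of these data known, so these counts are descriptions.

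Of the 8 genes, 4 (*CIT2*, *ACO1*, *KGD1* and *MDH1*) were above 0 on all 4 arrays, and 0 were below 0 on all 4. *MDH1* was barely above 0 on array 4, at 0.0026. Among all genes tested, 6.15% were above 0 on all 4 arrays and 17.0% below. Array 2 was lower as a whole, with a median of −0.37 over the genes tested, against −0.02, −0.04 and −0.07 on arrays 1, 3 and 4. With arrays centred on their medians, *LSC2* joined these 4 genes, though at only 0.02 on array 4. Thus 5 of 8 were above 0 throughout, against 10% of all genes. The median of the 8 means was 0.36, and that of all genes −0.14. By array the members' median lay 0.73, 0.54, 0.37 and 0.26 above that of all genes on arrays 1 to 4, so the offset was above 0 on each array and smallest on array 4, the array of narrowest spread.

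**Figure D1:**
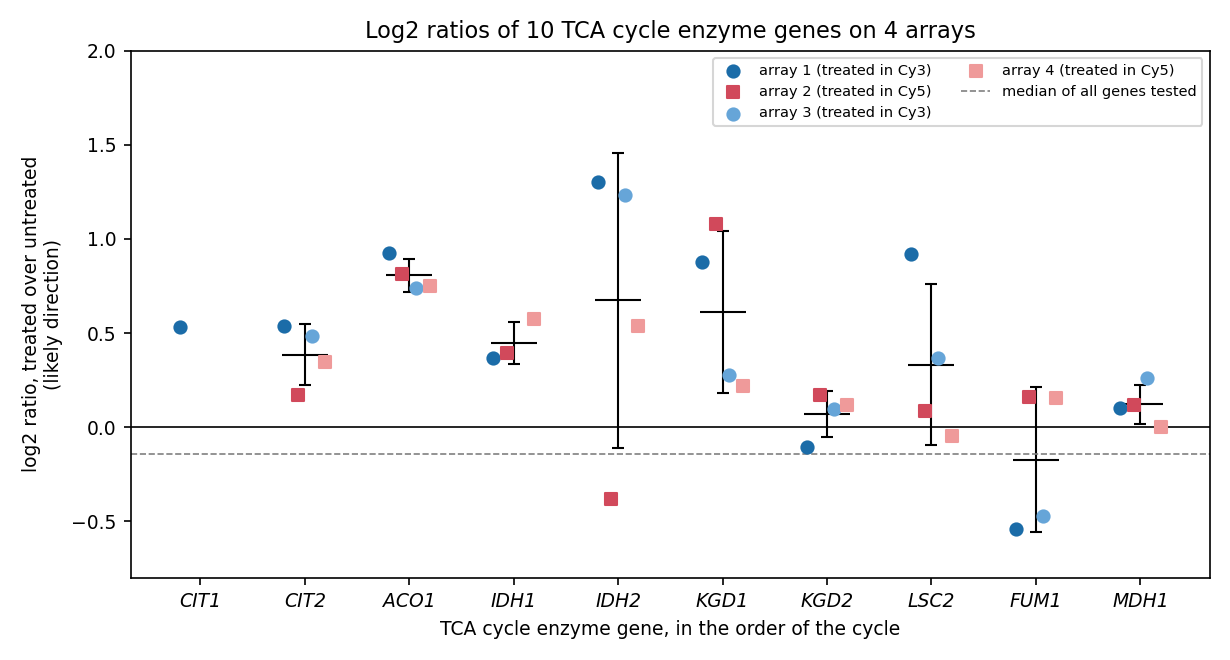
Log2 ratio (vertical axis) of each of 10 TCA cycle enzyme genes (horizontal axis) on each of 4 arrays; circles are arrays with treated RNA in Cy3, squares in Cy5, and bars give the mean and SD over the arrays with a value. The 4 values of *ACO1* lie between 0.74 and 0.93, while those of *IDH2* run from −0.38 to 1.30 and *FUM1* splits by dye orientation.

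Entry into the cycle is by citrate synthase, which joins acetyl-CoA to oxaloacetate. *CIT1* encodes the mitochondrial enzyme and read 0.53 on array 1, its only value, so nothing can be said of its spread. *CIT2* encodes the peroxisomal isozyme of the glyoxylate cycle and is the classic target of the retrograde pathway. It read 0.54, 0.17, 0.48 and 0.35 on arrays 1 to 4, a mean of 0.38 ± 0.16 (SD over 4 arrays of 2 cultures), and did not pass (limma, adjusted p = 0.761). All its arrays were above 0, array 2 the lowest, and the 95% interval of its mean ran from −0.16 to 0.93. On array 1, the only array with both, *CIT1* and *CIT2* read alike, 0.53 and 0.54. These genes are paralogs, and whether their spots tell them apart was not tested, since no spot sequence was used here.

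Aconitase, encoded by *ACO1*, turns citrate into isocitrate and also helps to maintain mitochondrial DNA. *ACO1* read 0.93, 0.81, 0.74 and 0.75 on arrays 1 to 4, with a mean of 0.81 ± 0.09. Its values were the closest together of the 8 complete members, and no array stood apart. Its mean ranked 105th from the top among 3299 genes, but its lowest array ranked 43rd among the lowest arrays of all genes. The adjusted p was 0.0710 (limma, both pairings), just outside the threshold, with a 95% interval of 0.27 to 1.35 for the mean. The smallest mean of any gene called higher was 0.85. The call depended on the setting. *ACO1* passed with centred arrays (limma, adjusted p = 0.0227), a robust prior (0.0124) and 4 arrays with a dye term (0.0288). In these settings 115, 160 and 125 of all 3299 genes passed. It did not pass with values on at least 3 arrays (0.131) or with 4 arrays without a dye term (0.0505). The fits of 4 arrays, with or without a dye term, count each array as a culture of its own. Over all alternatives the adjusted p of *ACO1* ran from 0.00525 to 0.606, the latter without array 1, while its mean stayed between 0.77 and 1.01.

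Isocitrate dehydrogenase, which makes 2-oxoglutarate and NADH, is an octamer of Idh1 and Idh2, the regulatory and the catalytic subunit. *IDH1* read 0.37, 0.40 and 0.58 on arrays 1, 2 and 4 and had no value on array 3, which gives a mean of 0.45 ± 0.11 (SD over 3 arrays). Its values lay close together and all above 0. In the fit of 4429 genes with values on at least 3 arrays, where 0.993% of genes were called higher, it did not pass (limma, adjusted p = 0.611), and *IDH2* did not either (0.255). *IDH2* read 1.30, −0.38, 1.23 and 0.54, with a mean of 0.67 ± 0.78 and an adjusted p of 0.213 (limma). Its values on the arrays with treated RNA in Cy3 did not overlap those in Cy5, with means of 1.27 and 0.08, and 4.18% of all genes had a wider gap between orientations. The mean holds both orientations equally, and with a dye term in the fit it was the same and did not pass (limma, adjusted p = 0.116). With 1 array left out, the means given for single genes are fitted: 2 culture means are averaged, then averaged over both pairings. An array left alone in its culture weighs more, so these are not plain means of the remaining arrays. Without array 2 the fitted mean of *IDH2* was 1.09, and *IDH2* passed (limma, adjusted p = 0.0334). The fitted mean fell to 0.37 without array 1 (0.913) and to 0.39 without array 3 (0.717).

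The difference between the 2 subunit genes had no fixed direction. Within arrays, *IDH1* minus *IDH2* was −0.94 on array 1, 0.78 on array 2 and 0.04 on array 4, a mean of −0.04 ± 0.86. The exact sign-flip permutation test, two-sided, gave p = 1 over the 3 arrays. These come from 2 cultures, and over culture means the exact test gave p = 1 under either pairing, where 2 cultures allow no p below 0.5. The direction of this mean turned without array 1, to 0.41, and over the culture means with arrays 1 and 4 paired, to 0.16. The SD over the arrays was 0.11 for *IDH1* and 0.78 for *IDH2*, so most of the spread of the difference lay with *IDH2*.

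The 2-oxoglutarate dehydrogenase complex makes succinyl-CoA. *KGD1* encodes its E1 subunit, which binds 2-oxoglutarate, and *KGD2* its E2 succinyltransferase. *KGD1* read 0.88, 1.08, 0.28 and 0.22, a mean of 0.61 ± 0.43 (limma, adjusted p = 0.313). It was above 0 on each array and higher on arrays 1 and 2 (mean 0.98) than on arrays 3 and 4 (mean 0.25), a gap that 9.76% of all genes exceeded. *KGD2* read −0.11, 0.17, 0.10 and 0.12, a mean of 0.07 ± 0.12 (limma, adjusted p = 0.960), with a 95% interval of −0.47 to 0.61; leaving out single arrays gave means between 0.02 and 0.13. *KGD1* exceeded *KGD2* on 4 of 4 arrays, by 0.98, 0.91, 0.18 and 0.10. The mean difference was 0.54 ± 0.47. Over the means of the 2 cultures the exact sign-flip permutation test, two-sided, gave p = 0.5 under either pairing, the smallest that 2 cultures allow. Flipping the 4 arrays singly, as if each were a culture of its own, gave an exact p of 0.125. Of the 3 pairs planned (*CIT1* with *CIT2*, *IDH1* with *IDH2*, *KGD1* with *KGD2*), 2 had enough arrays to test, and neither p can fall below 0.05 with or without adjustment.

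The lower part of the cycle regenerates oxaloacetate. *LSC2*, which encodes the beta subunit of succinyl-CoA ligase, read 0.92, 0.09, 0.37 and −0.05, a mean of 0.33 ± 0.43 (limma, adjusted p = 0.815). Array 1 was its highest, and the arrays with treated RNA in Cy3 lay above both in Cy5, with means of 0.64 and 0.02. Among all genes, 27.0% had a wider gap between orientations. The mean of *LSC2* was 0.11 without array 1 and 0.50 without array 4. *MDH1*, the mitochondrial malate dehydrogenase gene, read 0.10, 0.12, 0.26 and 0.00, a mean of 0.12 ± 0.11 (limma, adjusted p = 0.921). Its 95% interval of −0.42 to 0.66 leaves room for a change in either direction, and its mean was 0.07 without array 3. *FUM1* encodes fumarase, a single-gene enzyme that serves both mitochondrion and cytosol. It read −0.54, 0.16, −0.47 and 0.16, a mean of −0.17 ± 0.38, and was the only one of the 8 with a mean below 0 (limma, adjusted p = 0.898). Both Cy3 arrays were below 0 and both Cy5 arrays above it, the reverse of the order in *IDH2* and *LSC2*, and 24.2% of all genes had a wider gap between orientations. Its fitted mean was 0.0022 without array 1, −0.02 without array 3 and −0.34 without array 2 or array 4. The value without array 1 is near 0, and its sign rests on the unequal weights of that fit.

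**Figure D2:**
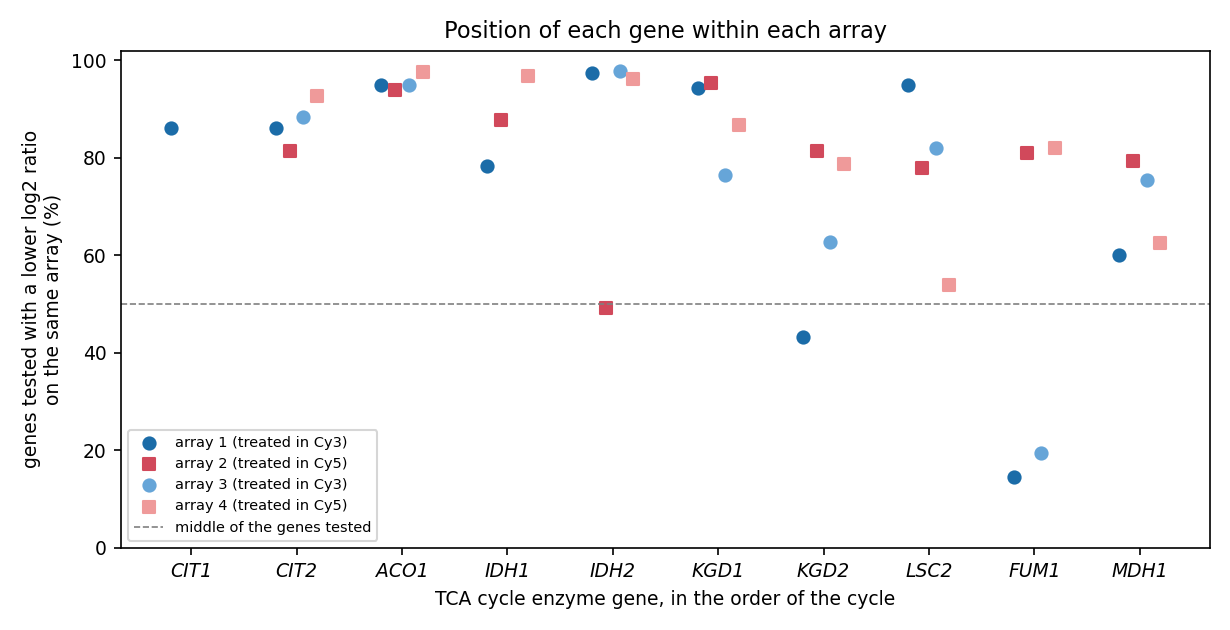
Share of the 3299 genes tested that had a lower log2 ratio on the same array (vertical axis, percent) for each TCA cycle enzyme gene (horizontal axis), by array; the dashed line marks the middle. *ACO1* lies above 93.9% to 97.7% of genes on every array, and *FUM1* above 14.5% and 19.4% on arrays 1 and 3 but above 81.1% and 82.1% on arrays 2 and 4.

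Ranked within each array, where differences in centring and spread between arrays drop out, *ACO1* lay above 95.1%, 93.9%, 95.0% and 97.7% of genes tested on arrays 1 to 4. *CIT2* was the next most even, above 86.2%, 81.4%, 88.5% and 92.7%. *IDH2* stood above 97.4%, 97.9% and 96.3% on arrays 1, 3 and 4, and near the middle on array 2 (49.3%). *KGD1* lay above 94.4% and 95.5% on arrays 1 and 2 and above 76.5% and 86.8% on arrays 3 and 4. *MDH1* ranged from 60.0% to 79.4%. Of the 8 complete genes, 6, 7, 7 and 8 lay above the array median on arrays 1 to 4. The order of the mean ratios was *ACO1*, *IDH2*, *KGD1*, *CIT2*, *LSC2*, *MDH1*, *KGD2* and *FUM1*. The gap between each gene and its neighbour in this order, at most 0.24 on the log2 scale, was smaller than the standard error of 0.28 that the fit gave each of them.

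**Figure D3:**
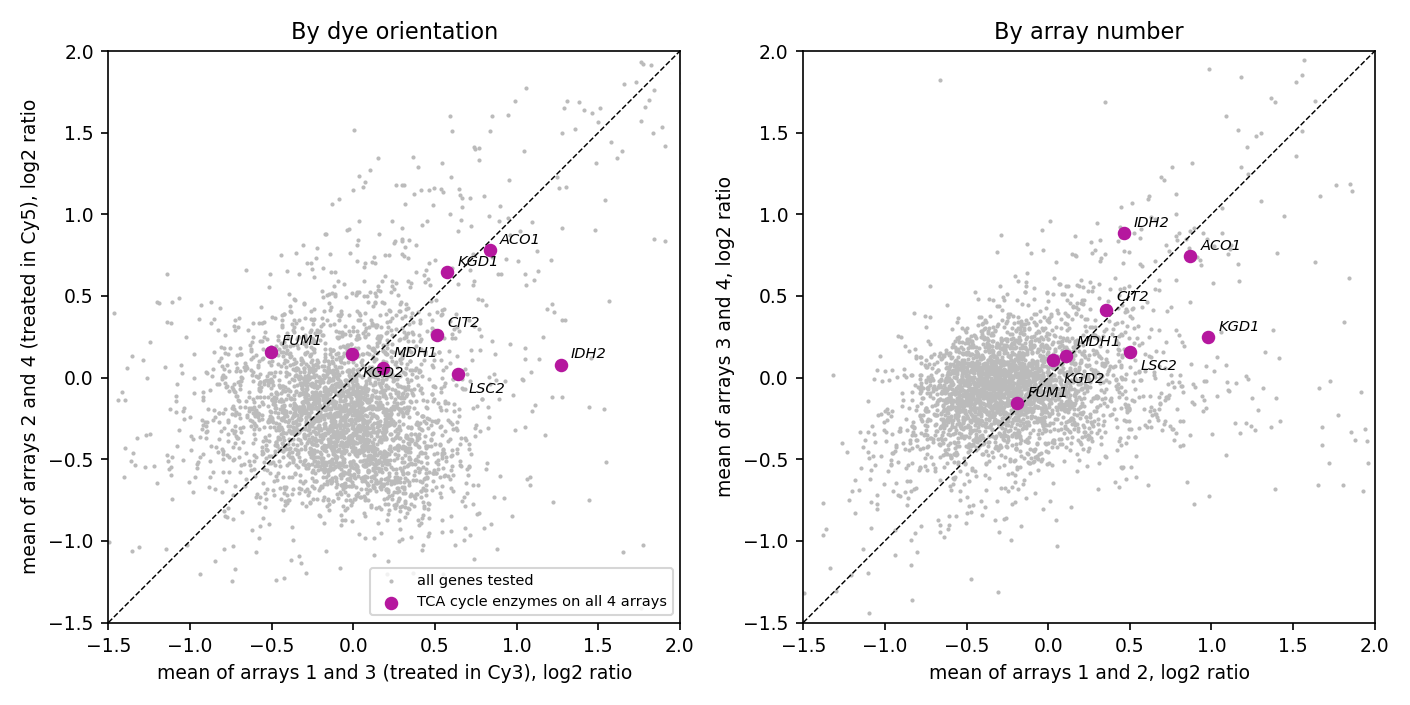
Mean log2 ratio of each gene tested (grey) and of the 8 complete TCA cycle enzyme genes (purple): left, arrays with treated RNA in Cy3 against those in Cy5; right, arrays 1 and 2 against arrays 3 and 4; the dashed line marks equal means. *ACO1* lies near both lines, *IDH2*, *LSC2* and *FUM1* lie off the line on the left and *KGD1* on the right; 49 and 62 genes lie outside the axes.

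The remaining genes of the cycle had a median close to that of all genes. Of 10 other TCA cycle genes, 6 had values on all 4 arrays. Of these, 1 was called higher and 0 lower, where 2.76% and 1.39% of all genes were. Their median mean was −0.11, against 0.36 for the members and −0.14 for all genes. The call was *IDP1*, counted in this list although it encodes the mitochondrial isocitrate dehydrogenase that uses NADP, not the NADH-forming enzyme of the cycle. It read 1.56, 1.90, −0.23 and 0.19 on arrays 1 to 4, a mean of 0.85 ± 1.03 (limma, adjusted p = 0.0488). High values were thus confined to arrays 1 and 2, and the call was lost without array 1 (0.73, adjusted p = 0.332), array 2 (0.55, 0.601) or array 4 (0.97, 0.339).

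Of the partners in the members' own complexes, *LPD1* and *KGD4* had means nearer to 0 than *KGD1*, a member with a high mean. The member *KGD2* (0.07) was in turn nearer to 0 than *KGD4* (−0.26). *LPD1*, the shared E3 subunit of the 2-oxoglutarate and pyruvate dehydrogenase complexes, read 0.26, 0.27, −0.31 and −0.23, a mean of −0.01 ± 0.31 whose sign turned with centring (0.12). *KGD4*, which tethers that E3 subunit to the 2-oxoglutarate dehydrogenase complex, read −0.78, −0.67, 0.38 and 0.03, with means from −0.44 to −0.14 when single arrays were left out. Both differed between arrays 1 and 2 and arrays 3 and 4, *LPD1* in the same order as *KGD1* and *KGD4* in the opposite one. Of all genes, 21.6% exceeded the gap of *LPD1* and 4.67% that of *KGD4*. *LSC1*, the alpha partner of *LSC2*, read −0.22, −0.25 and 0.13 on arrays 1 to 3 and had no value on array 4.

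Succinate dehydrogenase, the step without a member here, is both a cycle enzyme and complex II of respiration. *SDH2* (−0.27 ± 0.40), *SDH3* (−0.16 ± 0.42) and *SDH4* (−0.07 ± 0.38) did not pass (limma, adjusted p = 0.846, 0.903 and 0.959). *SDH1* had values of −0.23 and 0.42 on arrays 3 and 4 alone. Without array 2 the means of *SDH2* and *SDH3* were −0.06 and −0.01, and without array 3 that of *SDH2* was −0.43. The means of *SDH3* and *SDH4* turned above 0 with arrays centred and scaled to 1 spread (0.06 and 0.13).

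In the glyoxylate cycle and among extramitochondrial isozymes, 0 of 4 complete genes were called (limma). At an unadjusted p under 0.05, 1 was higher and 1 lower, against 4.94% and 5.88% of all genes. *IDP2*, the cytosolic NADP-dependent isocitrate dehydrogenase gene, read 0.63, 3.08, −0.62 and −0.05, with a fitted mean of −0.01 without array 2. *ICL1*, the isocitrate lyase gene, averaged −0.65 ± 0.62 and the cytosolic malate dehydrogenase gene *MDH2* −0.28 ± 0.33. Without array 3 these means were −0.38 and −0.13.

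Among genes of pyruvate and acetyl-CoA entry, 0 of 8 were called (limma). At an unadjusted p under 0.05, 1 was higher and 0 lower, against 4.94% and 5.88% of all genes. *PYC2*, a pyruvate carboxylase gene, read 0.88, 1.96, −0.28 and −0.25, again high on arrays 1 and 2 only. Its fitted mean was 0.16 without array 2. *MPC2*, a subunit of the mitochondrial pyruvate carrier, averaged −0.47 ± 0.35, and *LAT1*, the E2 subunit of pyruvate dehydrogenase, 0.20 ± 0.33. Without array 2 these means were −0.30 and 0.05, and without array 3 that of *LAT1* was 0.32.

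The genes called lower lay among the exits from the cycle and the carriers. Of 6 complete genes for exits to glutamate, malate and oxaloacetate, 2 were called lower and 0 higher, where 1.39% and 2.76% of all genes were. Of these 6 genes 5 were below 0 on all 4 arrays, against 17.0% of all genes, and 3 with arrays centred, against 8.67%. *GLN1*, which encodes glutamine synthetase, read −0.30, −1.97, −0.68 and −1.42, a mean of −1.09 ± 0.74 (limma, adjusted p = 0.00304). Both Cy5 arrays were lower than either Cy3 array, and 4.03% of all genes had a wider gap between orientations. The call was lost without array 2 (−0.72, adjusted p = 0.242) or array 4 (−0.86, 0.296). *MAE1*, the mitochondrial malic enzyme gene, read −0.54, −0.14, −3.10 and −0.58, a mean of −1.09 ± 1.35 (limma, adjusted p = 0.00503). Its call was lost without any 1 of the arrays, and its mean was −0.40 without array 3 and −1.51 without array 2. *GDH1*, the main NADP-dependent glutamate dehydrogenase gene, read between −0.63 and −0.41 on every array (mean −0.52 ± 0.09) and did not pass (adjusted p = 0.504).

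Of 4 complete genes for mitochondrial carboxylate carriers, 1 was called lower and 0 higher, where 1.39% and 2.76% of all genes were. *CTP1*, the citrate carrier gene, read −1.44, −0.93, −1.26 and 0.01, a mean of −0.91 ± 0.65 (limma, adjusted p = 0.0282). The call was lost when any 1 array was left out, with means from −1.25 to −0.66. *OAC1*, an oxaloacetate carrier gene, averaged −0.49 ± 0.30 and *ODC2*, a 2-oxoglutarate carrier gene, −0.26 ± 0.31, or −0.12 without array 1.

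Regulators of the cycle gave 0 calls among 5 complete genes (limma). At an unadjusted p under 0.05 there were also 0, where 4.94% of all genes were higher and 5.88% lower. The HAP subunit genes *HAP3* (−0.54 ± 0.45) and *HAP5* (−0.33 ± 0.14) read below 0 on all 4 arrays, as did 17.0% of all genes. They also did so with arrays centred, as did 8.67% of all genes. *HAP1*, a haem-responsive activator gene, read 1.68, −0.36, 0.66 and −0.34, high on the arrays with treated RNA in Cy3. A wider gap between orientations was found in 1.39% of all genes. The *HAP1* mean of 0.41 turned to −0.10 without array 1. *HAP4*, the activating subunit of the HAP complex, named here after its values were seen, read 1.04, 0.43 and 0.21 on arrays 1, 3 and 4. It had no value on array 2. The other regulator genes of this list, also named after their values were seen, had means on either side of 0. *HAP2* averaged −0.32 ± 0.32 and *RTG2* 0.12 ± 0.31. *RTG3* read 0.67, −1.86 and −0.46 on arrays 1, 2 and 4, and *MKS1* −0.31 and −0.05 on arrays 3 and 4. *RTG1* and *CAT8* had no value.

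**Figure D4:**
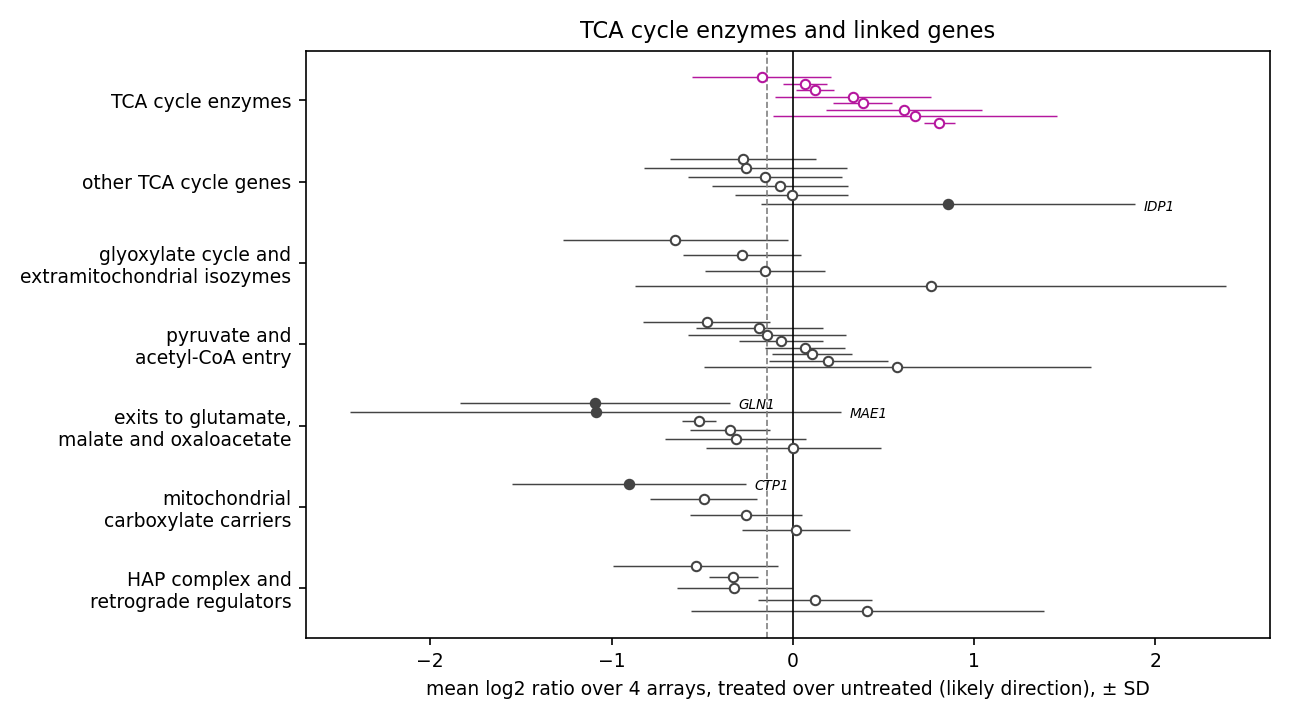
Mean log2 ratio and SD over 4 arrays (horizontal axis) of genes with values on all 4 arrays, by list (vertical axis); filled points passed the threshold (limma, adjusted p under 0.05), and the dashed line is the median of all genes tested. The TCA cycle enzymes lie between −0.17 and 0.81 with no filled point, while *GLN1*, *MAE1* and *CTP1* lie below −0.9 and *IDP1* at 0.85.

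Across all 51 linked genes, 33 had values on all 4 arrays; 1 was called higher and 3 lower, where 2.76% and 1.39% of all genes were. On all 4 arrays 0 of the 33 were above 0 and 10 were below, against 6.15% and 17.0% of all genes. With centred arrays 0 and 7 were, against 10% and 8.67%. The difference between the members and these lists was not tested.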

How the data were processed

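Per the labels' protocols, total RNA was labelled with Cy3 or Cy5 and hybridised to 2-colour arrays. The authors deposited 1 log ratio per ORF and array, taken here as log2; the sources used here state neither log base, numerator, centring nor normalization. Spot brightness is unknown, and precision is limited by the number of arrays. The arrays' medians as deposited were 0.04, −0.40, −0.13 and −0.08. Of 6209 rows, 2 control rows were left out; 5654 ORF names matched a RefSeq locus tag (assembly R64, used for names only), 57 a synonym, and 496 kept their name. Rows of 1 gene were averaged.

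The 3299 genes with 4 values were fitted with limma 3.58.1 (R 4.3.3). Arrays of opposite orientation were averaged into 2 culture means, tested against 0 with lmFit and eBayes. Both possible pairings were run; the larger p-value, adjusted over all genes (Benjamini-Hochberg), was kept. The fit borrowed its spread across genes (standard error 0.28 for each member), so the threshold is close to a rule of size and errors printed with means are SDs over arrays. Intervals are the wider of both pairings. The fit was tried on simulated arrays without a dye effect, which does not measure its error rate or power on these arrays.

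Members, lists and tests were chosen with earlier results of these data known. Named were all members, the called genes and the 3 largest means of each linked list, and partner subunits. *HAP4*, *HAP2*, *RTG2*, *RTG3* and *MKS1* were added after their values were seen and are left out of the count of named genes below. Sequences and motifs were not analysed here.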

Additional observations from a re-analysis of the deposited data

Results flagged for a closer look

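Among 29 named genes with 4 values, 1 array stood apart from the other 3 in 2 genes, by the gap to its neighbour set against the range of the 4 arrays (Dixon's test). Chance flags about 5% of such groups of independent samples. *MPC2* read −0.999 on array 2, against −0.33 to −0.28 on the others. *MAE1* read −3.10 on array 3, against −0.58 to −0.14. No TCA cycle enzyme was among them.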

How the results depend on the processing

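With 4 arrays of 2 cultures, an unstated culture for each array and unknown spot brightness, few calls held throughout. Genes past the threshold numbered 137 (91 higher, 46 lower), 2 (2 and 0) with arrays centred and scaled to 1 spread, 47 (44 and 3) with values on at least 3 arrays, 306 (156 and 150) with arrays 1 and 4 as the only pairing and 65 (53 and 12) with 4 arrays and no dye term, and 5 to 101 when single arrays were left out: 47 without array 1, 73 without array 2, 101 without array 3 and 5 without array 4. TCA cycle enzymes past the threshold numbered 0 in the main comparison. With centred arrays, a dye term, a robust prior or an adjusted p under 0.1 there was 1 (*ACO1*). At these 4 settings 115, 125, 160 and 186 of all 3299 genes passed. With arrays 1 and 4 as the only pairing there were 3 (*ACO1*, *IDH2*, *KGD1*), where 306 of all genes passed against 137 in the main comparison. Without single arrays there were 0 to 1 (*IDH2* without array 2, where 73 of all genes passed). Linked genes past the threshold went from 4 to 1 with centring, 0 with scaling, with at least 3 arrays or without a dye term, 2 with a dye term, and 0 to 3 without single arrays. The offset of the members' median from that of all genes, 0.50, kept its sign and lay between 0.41 and 0.59 without single arrays.

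Signs that turned were those of means near 0 or carried by 1 array. For single genes the values without 1 array are fitted means with unequal array weights, and the turn of *FUM1* rests on these weights. *FUM1* was 0.0022 without array 1 (−0.34 to 0.0022 without single arrays), *IDP2* −0.0077 without array 2 (−0.0077 to 1.29) and *HAP1* −0.10 without array 1 (−0.10 to 0.79). *LPD1* was 0.12 with centring and 0.047 with scaling, and −0.081 to 0.078 without single arrays. *SDH3* was 0.061 with scaling. *SDH4* was 0.056 with centring and 0.13 with scaling, and −0.23 to 0.11 without single arrays. *IDH1* minus *IDH2* ran from −0.45 to 0.41 without single arrays, and was 0.16 over culture means with arrays 1 and 4 paired and −0.02 with arrays 1 and 2 paired; *KGD1* minus *KGD2* from 0.40 to 0.69 without single arrays. The cause of these changes was not tested. Centring moved the median of all genes by 0.13. No paired analysis was possible because there is 1 group, and each ratio already pairs treated with untreated cells. The centred counts of genes above or below 0 on all arrays and the test over culture means were chosen after seeing the data. Of the single-gene alternatives for the members, 96 kept direction and side of the threshold, 8 passed it in addition and 1 turned. The turn was that of *FUM1* without array 1, under the weights of the fit.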
